A study of Mus musculus with 6 samples.

Results

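Inhibitory immune receptors are surface proteins that hold back a leukocyte once it has been activated. Many carry a short tyrosine motif in the cytoplasmic tail, the ITIM, which Src family kinases phosphorylate and which then recruits the phosphatases SHP-1, SHP-2 or SHIP-1. In macrophages these receptors oppose activating receptors that signal through ITAM adaptors and Syk, the route that Dectin-1 also uses when it meets the wall of a yeast such as Candida albicans. The 10 genes described here were taken by name from the deposited table of 54532 genes. They are 9 receptors (Cd22, Pirb, Lilrb4a, Sirpa, Cd300a, Clec12a, Siglece, Cd200r1 and Lair1) and Cd274, which encodes PD-L1 and is a ligand of the inhibitory receptor PD-1 more than a receptor itself. All 10 had a mean of at least 1 FPKM (fragments per kilobase of gene, scaled to library size) over the libraries, as did 9867 genes in all, which were the genes tested.

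RNA-seq was measured in 6 samples of primary macrophages labelled wild type (WT). In 3 samples rmMETRNL, a preparation labelled for the secreted protein METRNL (meteorin-like), was given for 6 h before a 6 h challenge with Candida albicans, and 3 samples had vehicle before the same challenge. Macrophages of both groups were exposed to Candida, and unchallenged cells are not part of the comparison. The labels do not name the tissue the macrophages came from, the age of the mice, or whether each sample of a group had its own animal or dish. The p-values therefore cover only the scatter among 6 libraries, part or all of which may be technical. The columns of the table have short names, and those with the letter r were read as rmMETRNL, so every direction below rests on that reading.

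Macrophage genes were abundant, with Lyz2 (lysozyme) at 5567 ± 139 FPKM in rmMETRNL libraries and 5460 ± 382 FPKM in those given vehicle (all such pairs are means ± SD of n = 3) and Cd14, a co-receptor for lipopolysaccharide, at 2298 ± 53.4 and 2647 ± 62.0 FPKM in the same order, each rmMETRNL value being lower (log2 fold change -0.20, limma adjusted p = 0.189). Of 15 macrophage markers in the table, 14 passed the level tested. Limma called 0 of these 14 at an adjusted p of 0.05. Limma voom, run on reads recovered from the FPKM values, called 2, where it called 0.618% of all genes tested. They were Cd14, lower with rmMETRNL (voom adjusted p = 0.047), and Lpl, higher with rmMETRNL (voom adjusted p = 0.018). The protocol text also speaks of retinas, but the 12 retina markers summed to 0.748 to 0.934 FPKM in rmMETRNL libraries and 0.503 to 0.614 FPKM in vehicle libraries, with Crx at 0. The FPKM values resolved into whole reads, 14861916 to 15744878 per rmMETRNL library and 13235001 to 18145733 per vehicle library. The third rmMETRNL library stood apart. Its FPKM summed to 363634 over all genes, against 373565 to 384657 in the other libraries. Across genes, its deviation from the mean of all libraries had a rank correlation with gene length of 0.313, against -0.168 to -0.0212 in the other libraries.

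None of the 10 genes passed the test. Mean FPKM differed most in the least abundant members, by 50.3% in Siglece and 21.9% in Clec12a, and by 12.1% or less in either direction in the other 8. Limma on log2(FPKM + 1), with p adjusted over the 9867 genes, called 0 members and 0 genes at 0.05 (0% of all genes tested), and the lowest adjusted p of a member was 0.319. At an unadjusted p under 0.05 the members were Cd22, Siglece and Cd274, 3 of 10, all higher with rmMETRNL, where 14.7% of all genes tested met that level in either direction and 7.54% did so in the higher and 7.13% in the lower direction. On reads recovered from the FPKM values, limma voom also called 0 members, against 61 genes over the whole table (0.618%), and gave Cd274, Lilrb4a, Clec12a and Siglece an unadjusted p under 0.05, where 15.6% of all genes did. Of the members, 8 of 10 had a positive log2 fold change, as did 48.4% of all genes tested. The median log2 fold change was 0.07 over the members and -0.0056 over all genes tested. In 5 members, Cd274, Cd22, Cd300a, Clec12a and Siglece, each rmMETRNL value lay above each vehicle value, and in 0 members did each lie below. Of all genes tested, 21.5% had groups that did not overlap, 10.9% with rmMETRNL higher.

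**Figure D1:**
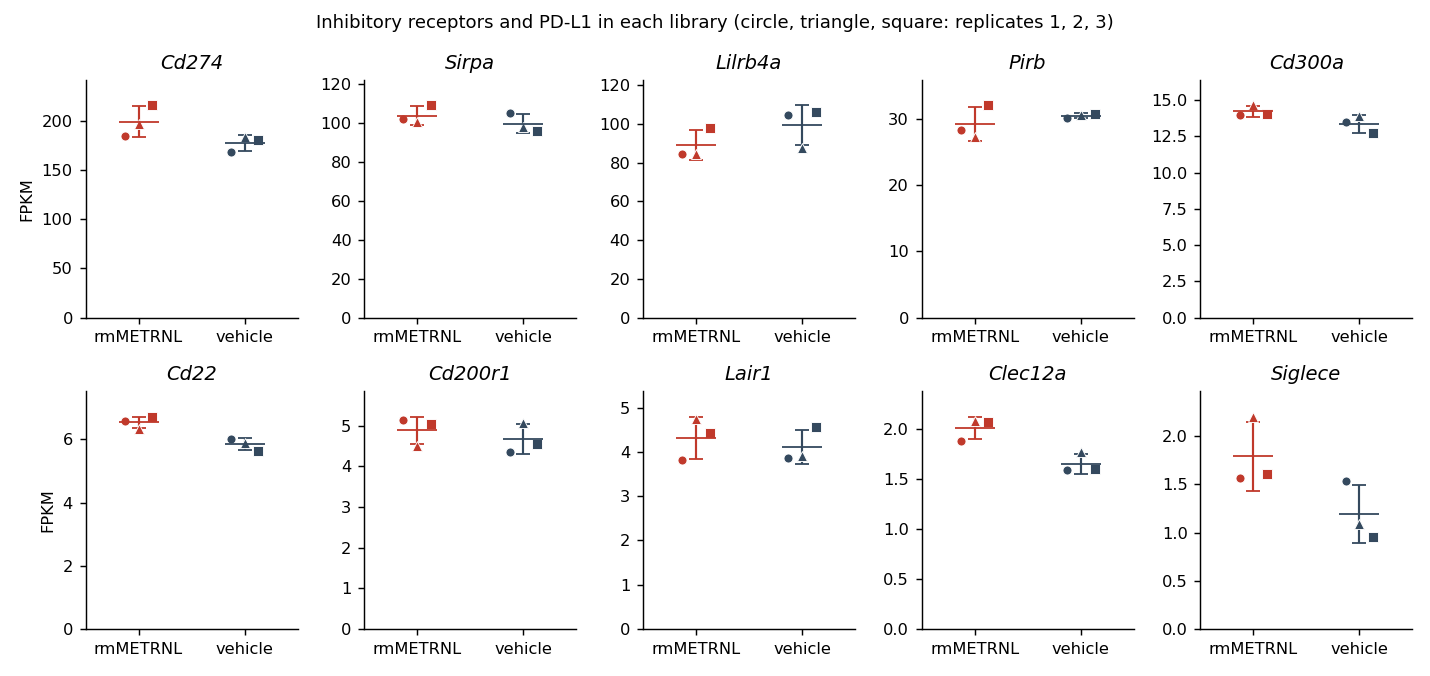
FPKM of each of the 10 genes in every library, rmMETRNL left and vehicle right in each panel, with the mean (bar) and SD (whiskers) of 3 libraries and each axis starting at 0. The panels run from Cd274, with 169 to 216 FPKM, to Siglece, with 0.9504 to 2.21 FPKM.

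The levels spanned a wide range. Cd274 averaged 189 FPKM over the 6 libraries, Sirpa 102, Lilrb4a 94.2, Pirb 29.9, Cd300a 13.8, Cd22 6.19, Cd200r1 4.78, Lair1 4.22, Clec12a 1.83 and Siglece 1.49 FPKM. FPKM is scaled by gene length, so these levels can be set side by side roughly. Those of Pirb and Lilrb4a, which share sequence with other genes, are uncertain. The order was the same in each library except for 3 pairs of neighbours. Sirpa and Lilrb4a changed places in vehicle library 3, Cd200r1 and Lair1 in rmMETRNL library 2 and vehicle library 3, and Clec12a and Siglece in rmMETRNL library 2. Cd200r1 and Lair1 overlapped within both groups. Sirpa lay above Lilrb4a without overlap among rmMETRNL libraries and overlapped it among vehicle libraries, whereas Clec12a and Siglece overlapped among rmMETRNL libraries and did not among vehicle libraries. Together the 10 genes summed to 433, 444 and 489 FPKM in rmMETRNL libraries 1, 2 and 3 and to 439, 432 and 444 FPKM in vehicle libraries 1, 2 and 3. The sums overlapped, with rmMETRNL library 3 above the rest.

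Cd274 was the most abundant member. It encodes PD-L1 (ENSMUSG00000016496, chromosome 19, 29367455 to 29388095, GRCm38), which binds PD-1 on T cells and can bind CD80 on the same cell. It stood at 185, 197 and 216 FPKM in rmMETRNL libraries, against 169, 184 and 181 FPKM in vehicle libraries. All rmMETRNL values were higher than all vehicle values, the gap between the nearest being about 1 FPKM, and rmMETRNL library 3 was the highest. The means were 199 ± 15.7 and 178 ± 8.19 FPKM, a difference of 12.1%, with a log2 fold change of 0.16 (SE 0.07, 95% interval 0.0011 to 0.32, limma adjusted p = 0.337). Without rmMETRNL library 3 the log2 fold change was 0.10. In GENCODE M21, 14.1% of the exon bases of Cd274 lie under a gene on the other strand, and the strand setting of the counting is not given in the sources used here, so reads of the pair cannot be told apart.

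The partners of PD-L1 were measured too. Pdcd1lg2, which encodes the other PD-1 ligand, PD-L2, and neighbours Cd274 on chromosome 19, had 6.26, 7.28 and 6.35 FPKM with rmMETRNL and 6.82, 6.87 and 7.41 FPKM with vehicle, and these overlapped. Cd274 was 30.2 ± 3.53 times as abundant as Pdcd1lg2 in rmMETRNL libraries and 25.3 ± 1.28 times in vehicle libraries. Cd80 had 45.3 ± 1.05 FPKM with rmMETRNL and 44.7 ± 0.632 FPKM with vehicle. Pdcd1, the gene of PD-1, was low at 1.90, 1.35 and 2.03 FPKM in rmMETRNL libraries and 0.992, 1.47 and 1.11 FPKM in vehicle libraries (log2 fold change 0.33, SE 0.14, limma adjusted p = 0.336). Only rmMETRNL library 2 fell inside the vehicle range.

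The sialic acid receptors of the set are Cd22 and Siglece. Cd22 (ENSMUSG00000030577, chromosome 7, 30865402 to 30880342) encodes a Siglec with ITIMs that is best known for restraining the B cell receptor. It had 6.57, 6.33 and 6.70 FPKM with rmMETRNL and 6.01, 5.88 and 5.64 FPKM with vehicle, from 396 to 518 reads per library. The groups did not overlap, and Cd22 had the smallest p of the 10 genes, with a log2 fold change of 0.14 (SE 0.05, 95% interval 0.01 to 0.27, limma adjusted p = 0.319) and means 11.9% apart. Gm29439, a gene on the other strand that overlaps 9.50% of the exon bases of Cd22, was listed at 0 in each library. As Cd22 is a B cell gene, the 12 B cell markers are given beside it. They summed to 20.0 to 22.2 FPKM in rmMETRNL libraries and 18.2 to 23.1 FPKM in vehicle libraries, so the groups overlapped, and 0 of the 12 were at 0 in all libraries. Ighm, the heavy chain of IgM, made up most of that sum at 13.6 ± 1.06 and 13.8 ± 2.37 FPKM, Cd79a had 2.86 ± 0.274 and 2.49 ± 0.425 FPKM, and Cd79b had 2.41 ± 0.343 and 2.01 ± 0.360 FPKM, each with rmMETRNL first. Of these 3 tested markers Ighm had a log2 fold change of -0.01, Cd79a of 0.15 and Cd79b of 0.18, a median of 0.15 beside the 0.14 of Cd22, and the groups overlapped in all 3. The defining marker Ms4a1, at 0.175 to 0.251 FPKM with rmMETRNL and 0.145 to 0.293 FPKM with vehicle, was near 0. The part of B cells in the Cd22 values was not tested. In bulk RNA, fewer cells of a type and less RNA per cell cannot be told apart.

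Siglece (ENSMUSG00000030474, chromosome 7, 43651070 to 43660161) encodes an ITIM-bearing Siglec of mouse myeloid cells. It was the least abundant member, at 1.57, 2.21 and 1.60 FPKM with rmMETRNL and 1.53, 1.09 and 0.9504 FPKM with vehicle. These values rest on 44 to 64 reads in rmMETRNL libraries and 27 to 43 reads in vehicle libraries. The groups did not overlap, but rmMETRNL library 1 was nearly level with vehicle library 1, and rmMETRNL library 2 stood above the rest. The means were 1.79 ± 0.359 and 1.19 ± 0.305 FPKM, 50.3% apart. The log2 fold change of 0.35 (SE 0.14, 95% interval 0.01 to 0.69, limma adjusted p = 0.328) was 0.25 without rmMETRNL library 2, and voom, which adds no such pseudocount, gave 0.60 (SE 0.28, adjusted p = 0.314). The pseudocount of 1 FPKM is of the size of the value itself here, which shrinks the fold change.

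Clec12a and Cd300a also had groups that did not overlap. Clec12a (ENSMUSG00000053063, chromosome 6, 129342691 to 129365303), a C-type lectin with an ITIM that senses uric acid crystals and dead cells, had 1.89, 2.09 and 2.07 FPKM with rmMETRNL and 1.59, 1.77 and 1.60 FPKM with vehicle. The lowest rmMETRNL value was above the highest vehicle value, and the means were 21.9% apart (log2 fold change 0.18, SE 0.08, 95% interval -0.0046 to 0.37, limma adjusted p = 0.350). Reads per library were 131 to 181. Cd300a (ENSMUSG00000034652, chromosome 11, 114890041 to 114904654), an ITIM receptor for the phospholipids that dying cells expose, had 14.0, 14.6 and 14.0 FPKM with rmMETRNL and 13.5, 13.9 and 12.7 FPKM with vehicle. The groups nearly touched, the difference was 6.37% (log2 fold change 0.08, SE 0.05, limma adjusted p = 0.506), and the values overlapped on the voom scale and once each library's trend with gene length was removed.

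Siglece and Clec12a are also genes of neutrophils. The 12 neutrophil markers summed to 204 to 221 FPKM in rmMETRNL libraries and 192 to 201 FPKM in vehicle libraries, and these did not overlap. S100a8, at 86.1 ± 0.564 and 83.7 ± 4.59 FPKM, Mmp8, at 77.0 ± 4.56 and 71.9 ± 1.56 FPKM, and S100a9, at 34.8 ± 3.56 and 24.4 ± 0.781 FPKM, each with rmMETRNL first, made up most of the sum. S100a9 had groups that did not overlap (log2 fold change 0.49, limma adjusted p = 0.151), and those of S100a8 and Mmp8 overlapped. The other 2 tested markers were Csf3r, at 7.81 ± 0.552 and 7.86 ± 0.487 FPKM, and Retnlg, at 6.49 ± 0.654 and 6.58 ± 1.31 FPKM, again with rmMETRNL first, and the median log2 fold change of the 5 was 0.04. The defining marker Ly6g had 0.135 to 0.429 FPKM with rmMETRNL and 0.175 to 0.490 FPKM with vehicle, and Elane was at 0 in each library. Of the other marker lists, T and NK cell markers summed to 4.10 to 5.62 FPKM with rmMETRNL and 3.17 to 3.97 FPKM with vehicle, which did not overlap either. Only 1 of these 12 markers, Trac, passed the level tested. Trac had 2.61, 0.818 and 2.60 FPKM with rmMETRNL and 0.565, 0.720 and 1.76 FPKM with vehicle. Its groups overlapped, and its values rest on 8 to 38 reads. The retina sums given above, all near 0, did not overlap either, with rmMETRNL higher. The sums of the dendritic, mast cell and eosinophil, and stromal lists overlapped between the groups. The part of these cells in the members' values was not tested.

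**Figure D2:**
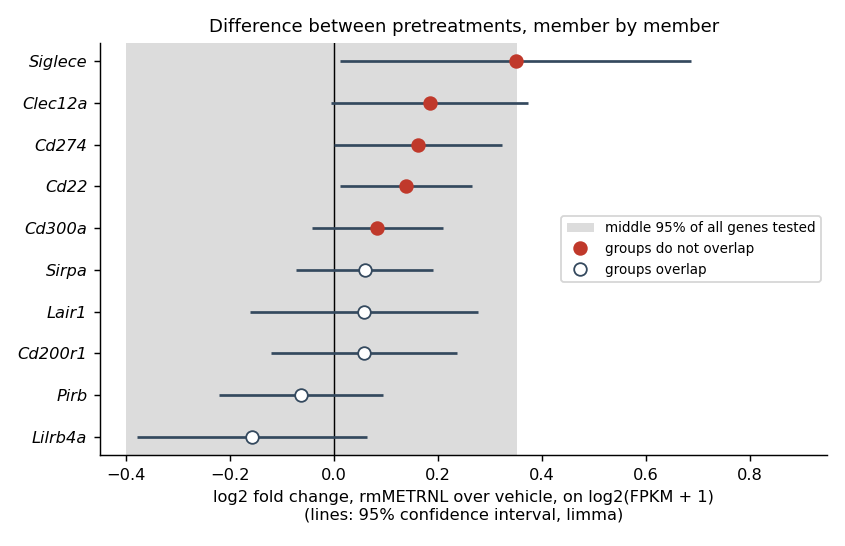
Log2 fold change of each member, rmMETRNL over vehicle, with its 95% interval from limma, filled where the groups did not overlap. The grey band holds the middle 95% of all 9867 genes tested, from -0.40 to 0.35, and each member's point lies inside it.

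Sirpa, Lilrb4a and Pirb, all well expressed, had groups that overlapped. Sirpa (ENSMUSG00000037902, chromosome 2, 129592835 to 129632228) encodes SIRP-alpha, which binds CD47 on other cells and restrains phagocytosis. It had 102, 100.3 and 109 FPKM with rmMETRNL and 105, 97.9 and 95.8 FPKM with vehicle. Vehicle library 1 lay among the rmMETRNL values, and the difference was 4.21% (log2 fold change 0.06, SE 0.06, 95% interval -0.07 to 0.19). Its ligand gene Cd47 had 21.5, 23.5 and 24.1 FPKM with rmMETRNL and 24.8, 23.1 and 25.7 FPKM with vehicle, so the ligand was a fraction of the receptor in each library, 0.222 ± 0.0117 and 0.247 ± 0.0184 times as abundant with rmMETRNL first.

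Pirb (ENSMUSG00000058818, chromosome 7, 3711409 to 3720391) encodes PIR-B, a receptor of MHC class I with several ITIMs. It had 28.3, 27.3 and 32.1 FPKM with rmMETRNL, both below and above the narrow vehicle values of 30.1, 30.6 and 30.8 FPKM. The log2 fold change was -0.06 (SE 0.07, limma adjusted p = 0.702), and without rmMETRNL library 3 the other rmMETRNL values lay below all vehicle values. Other genes hold 44.1% of its 31-base words, the activating PIR-A relatives among them (23.1% in Lilra6), so its level is uncertain. The MHC class I genes H2-D1 (987 ± 61.7 FPKM with rmMETRNL and 1073 ± 7.17 FPKM with vehicle) and H2-K1 (536 ± 21.5 and 516 ± 7.20 FPKM in that order) lay on opposite sides of their vehicle means. All 3 rmMETRNL values of H2-D1 were below all vehicle values (log2 fold change -0.12, SE 0.05, limma adjusted p = 0.354).

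Lilrb4a (ENSMUSG00000112148, chromosome 10, 51490956 to 51496611) encodes gp49B, a receptor with ITIMs. It had 84.4, 84.6 and 97.8 FPKM with rmMETRNL and 105, 87.8 and 106 FPKM with vehicle. Both groups had 1 library away from the other 2, rmMETRNL library 3 high and vehicle library 2 low, so that the groups overlapped. The means were 89.0 ± 7.68 and 99.5 ± 10.2 FPKM, with a log2 fold change of -0.16 (SE 0.09, 95% interval -0.38 to 0.06, limma adjusted p = 0.480). Without vehicle library 2 it was -0.24 and without rmMETRNL library 3 it was -0.23, and in both cases the groups did not overlap, as was so for 30.9% and 29.6% of all genes tested.

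Lilrb4a has a near copy next to it on chromosome 10, Lilr4b (ENSMUSG00000112023, 51480632 to 51486703), which encodes gp49A, a relative without ITIMs. The copy was more abundant, at 249, 248 and 263 FPKM with rmMETRNL and 285, 275 and 284 FPKM with vehicle. All rmMETRNL values lay below all vehicle values (means 253 ± 8.74 and 282 ± 5.50 FPKM, log2 fold change -0.15, SE 0.04, limma adjusted p = 0.243). Lilr4b was 2.86 ± 0.142 times as abundant as Lilrb4a with rmMETRNL and 2.85 ± 0.251 times with vehicle. Short reads that fall wholly in identical stretches cannot tell the pair apart, and the sequences show such stretches. Over 907 aligned coding bases, 96.0% were identical, the longest identical run was 126 bases, and 39.1% of the 31-base words of Lilrb4a occur in Lilr4b. Coding bases 302 to 361 of Lilrb4a, on the plus strand of GRCm38, are the same in both genes and are shown as a stretch whose reads could come from either.
Lilrb4a and Lilr4b: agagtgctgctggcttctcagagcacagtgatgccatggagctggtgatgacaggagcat
The 60 aligned bases with the most differences, coding bases 209 to 268 of each gene, hold 9 of them, in capitals, and are shown as a stretch whose reads can be assigned.
Lilrb4a: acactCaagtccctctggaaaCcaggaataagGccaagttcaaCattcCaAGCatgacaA
Lilr4b: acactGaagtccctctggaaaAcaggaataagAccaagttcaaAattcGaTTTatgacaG
A further gene model on the same strand, Gm49339, covers 35.3% of the exon bases of Lilrb4a and was listed at 0.0323 to 0.339 FPKM with rmMETRNL and 0.193 to 0.526 FPKM with vehicle. How reads common to these genes were counted is not given in the sources used here, so the levels of Lilrb4a are uncertain.

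Cd200r1 and Lair1 were low and had groups that overlapped. Cd200r1 (ENSMUSG00000022667, chromosome 16, 44765736 to 44794978) encodes the CD200 receptor, which has no ITIM and acts through the adaptors Dok2 and Dok1. It had 5.13, 4.51 and 5.03 FPKM with rmMETRNL and 4.36, 5.07 and 4.56 FPKM with vehicle (log2 fold change 0.06, SE 0.08, 95% interval -0.12 to 0.24). Its ligand gene Cd200 had 27.5, 32.4 and 31.98 FPKM with rmMETRNL and 24.8, 26.6 and 24.8 FPKM with vehicle. The Cd200 groups did not overlap (log2 fold change 0.26, SE 0.07, limma adjusted p = 0.244). Dok2 lay the other way, at 9.13, 7.99 and 8.76 FPKM with rmMETRNL and 10.6, 10.6 and 9.22 FPKM with vehicle, also without overlap (log2 fold change -0.21, SE 0.08, limma adjusted p = 0.305). Lair1 (ENSMUSG00000055541, chromosome 7, 4003402 to 4063204), an ITIM receptor for collagens and C1q, had 3.81, 4.75 and 4.42 FPKM with rmMETRNL and 3.86, 3.91 and 4.56 FPKM with vehicle (log2 fold change 0.06, SE 0.09, 95% interval -0.16 to 0.28). The C1q genes among its ligands were plentiful, C1qb with 166 ± 14.4 FPKM with rmMETRNL and 165 ± 2.34 FPKM with vehicle. The collagen genes listed were low. The most abundant of them, Col1a1, had 1.36 ± 0.351 FPKM with rmMETRNL and 1.60 ± 0.121 FPKM with vehicle.

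**Figure D3:**
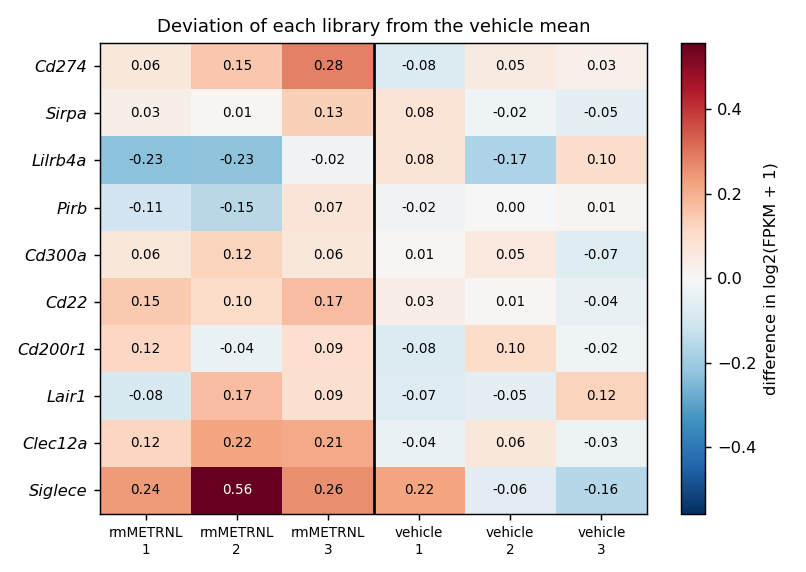
Difference of each library from the vehicle mean in log2(FPKM + 1) for the 10 genes, ordered by level, with rmMETRNL libraries left of the line. In rmMETRNL library 3 Cd274 was at 0.28 and Lilrb4a at -0.02, where rmMETRNL library 1 had 0.06 and -0.23.

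Among the 36 other inhibitory receptors and checkpoint ligands in the table, 19 were tested, 0 passed and 11 were positive, with a median of 0.01. In 2 of the 19, Vsir and Slamf7, the groups did not overlap, rmMETRNL being higher, as was so for 10.9% of all genes tested. Vsir, which encodes the checkpoint protein VISTA, had 46.2, 48.3 and 45.7 FPKM with rmMETRNL and 39.2, 42.5 and 39.9 FPKM with vehicle (log2 fold change 0.20, SE 0.05, limma adjusted p = 0.230). Slamf7, a self-binding receptor of the SLAM family, had 42.7, 44.6 and 48.1 FPKM with rmMETRNL and 39.4, 37.6 and 41.8 FPKM with vehicle (log2 fold change 0.18, SE 0.06, limma adjusted p = 0.287). Pdcd1, described above, and Ceacam1, an ITIM-bearing adhesion receptor with 6.42 ± 0.550 and 5.81 ± 0.340 FPKM with rmMETRNL first, had the next smallest p.

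Of 20 activating relatives and adaptors in the table, 15 were tested, 0 passed and 8 were positive (median 0.001). Tyrobp, the ITAM adaptor DAP12, stood at 553 ± 39.5 FPKM with rmMETRNL and 623 ± 46.0 FPKM with vehicle, with overlap (log2 fold change -0.17, SE 0.08, limma adjusted p = 0.352), and Fcer1g, the other main ITAM adaptor of macrophages, at 721 ± 29.8 and 727 ± 13.5 FPKM in that order. Cd300lb, an activating relative of Cd300a, had 40.4, 41.3 and 43.5 FPKM with rmMETRNL and 40.3, 38.3 and 36.5 FPKM with vehicle, without overlap by a narrow gap (log2 fold change 0.12, SE 0.05, limma adjusted p = 0.379). Pilrb1, an activating receptor that pairs with DAP12, had 6.07 ± 0.467 FPKM with rmMETRNL and 5.26 ± 0.436 FPKM with vehicle. Hcst, the adaptor DAP10, had 11.9 ± 2.24 and 13.9 ± 0.901 FPKM in that order.

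The signalling genes below the receptors showed no call either. Of 14 phosphatases and docking adaptors tested 0 passed and 6 were positive (median -0.03). Ptpn6, the gene of SHP-1, had 33.9 ± 1.45 FPKM with rmMETRNL and 33.6 ± 2.23 FPKM with vehicle, and Inpp5d, the gene of SHIP-1, had 16.9 ± 1.35 and 18.1 ± 1.53 FPKM. Dok3, an adaptor that recruits SHIP-1, had 33.8 ± 1.47 and 37.6 ± 3.10 FPKM, Grb2 had 60.1 ± 1.94 and 56.8 ± 0.955 FPKM, and Dok1 had 12.9 ± 0.641 and 13.9 ± 1.09 FPKM, each with rmMETRNL first. The groups of Grb2 did not overlap, rmMETRNL being higher, and those of Dok3 and Dok1 overlapped. Of 7 tyrosine kinases tested 0 passed and 3 were positive (median -0.02). Lyn, which phosphorylates many ITIMs, had 47.3 ± 1.65 FPKM with rmMETRNL and 47.8 ± 0.652 FPKM with vehicle. Src had 8.05 ± 0.593 and 6.97 ± 0.434 FPKM in that order (log2 fold change 0.18, SE 0.07, limma adjusted p = 0.324), and its groups just overlapped. Fyn had 12.6 ± 0.353 and 13.6 ± 0.659 FPKM, Btk 6.57 ± 0.454 and 7.43 ± 0.878 FPKM, and Fgr 9.50 ± 0.0628 and 9.84 ± 0.253 FPKM. The groups of Fgr did not overlap, rmMETRNL being lower by a narrow gap, and those of Fyn and Btk overlapped. Of all genes tested, 21.5% had groups that did not overlap.

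Of 18 genes tested in the list of ligands and binding partners, 0 passed and 7 were positive, with a median of -0.05. The list also holds Cmas and St6gal1, which encode enzymes of sialic acid activation and transfer and not ligands, and Thbs1, whose partner CD47 is not a member. Beside Cd200 and Pdcd1, the smallest p-values were those of Thbs1 and Anxa1. Thbs1, which encodes the CD47 ligand thrombospondin, had 118, 117 and 139.8 FPKM with rmMETRNL and 148, 154 and 140.3 FPKM with vehicle (log2 fold change -0.24, SE 0.08, limma adjusted p = 0.276). Anxa1, the gene of annexin A1, had 73.0 ± 2.54 FPKM with rmMETRNL and 80.3 ± 2.15 FPKM with vehicle (log2 fold change -0.14, SE 0.05, limma adjusted p = 0.281). For both genes each rmMETRNL value lay below each vehicle value, for Thbs1 by a gap of under 1 FPKM.

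**Figure D4:**
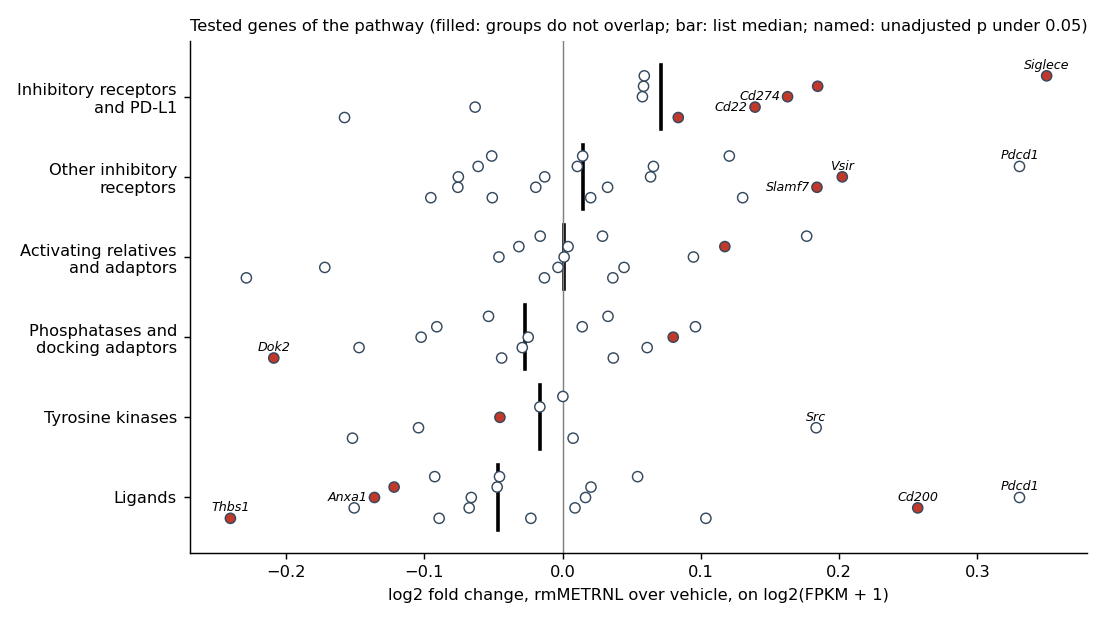
Log2 fold changes of all tested genes of the 10 members and of each related list, 1 point per gene, filled where the groups did not overlap, with a bar at each list's median. The medians run from 0.07 for the members to -0.05 for the list of ligands and partners, and none of the genes passed limma at an adjusted p of 0.05.

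The start regions of the members were read from RefSeq (GRCm38.p6), which gave a promoter for 7 of the 10. For Cd22 and Clec12a the RefSeq start lies inside the gene coordinates given above, and so does the window before it. In the 250 bases before the start, letters of a binding motif were searched on both strands, with overlaps allowed. The PU.1 core GAGGAA, a motif of myeloid promoters, was in 5 of the 7 (Cd300a, Clec12a, Lair1, Pirb and Siglece), and 23.3% of 32851 promoter windows hold it. The NF-kappaB pattern, GGG and CC with any 5 bases between them, was in 3 of 7, against 45.8% of all windows. The AP-1 pattern TGANTCA was in 1 of 7, Clec12a, against 6.75%. The STAT pattern TTCNNNGAA and the IRF pattern, GAAA and GAAA with any 2 bases between them, were in 0 of 7, against 7.02% and 2.98%. A match describes the letters of these windows and shows no binding. The windows of the 3 members with an unadjusted p under 0.05 are printed 5′ to 3′ on the strand of the gene, with matches in capitals. They show the contrast between Siglece, with 6 matches, and Cd274 and Cd22, with 0, the window of Cd22 being the one inside the gene.
Siglece, chr7:43660162-43660411, minus strand: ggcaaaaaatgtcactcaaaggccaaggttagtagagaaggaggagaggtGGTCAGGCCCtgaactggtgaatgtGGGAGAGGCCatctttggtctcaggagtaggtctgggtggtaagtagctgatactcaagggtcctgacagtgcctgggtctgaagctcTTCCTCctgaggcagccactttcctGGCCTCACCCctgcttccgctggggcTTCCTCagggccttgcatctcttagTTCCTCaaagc
Cd22, chr7:30879029-30879278, minus strand: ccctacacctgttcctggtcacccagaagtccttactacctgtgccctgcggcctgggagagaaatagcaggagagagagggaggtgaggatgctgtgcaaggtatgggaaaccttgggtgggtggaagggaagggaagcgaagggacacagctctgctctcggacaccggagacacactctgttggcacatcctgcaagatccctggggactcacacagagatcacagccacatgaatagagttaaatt
Cd274, chr19:29367188-29367437, plus strand: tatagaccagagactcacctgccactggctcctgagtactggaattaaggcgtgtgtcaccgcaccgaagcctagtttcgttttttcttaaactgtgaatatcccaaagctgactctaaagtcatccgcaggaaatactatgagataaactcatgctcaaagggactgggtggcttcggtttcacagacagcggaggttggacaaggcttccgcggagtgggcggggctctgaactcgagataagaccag

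For the 2 members with the smallest p, the protein-coding genes of at least 5 FPKM with the most similar pattern over the 6 libraries are given as a description, since 6 libraries of 2 groups leave many genes alike. For Cd22, 54 of 4991 genes had a Pearson correlation over 0.95, led by 1190002N15Rik (0.993), Cd3eap (0.992) and F11r (0.990). For Siglece, 12 of 4992 genes did, led by Wdr61 (0.989), Hbs1l (0.982) and Mgat1 (0.980). All genes were measured in the same 6 libraries, each with its own pretreatment and depth. A likeness of this kind therefore holds the difference between the groups as well as the scatter within them.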

How the data were processed

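The authors deposited 1 table of FPKM values, a column per library and a row for each of 54532 genes, with each gene's length. Builds GRCm38 and mm10 appear in the submitters' processing notes. Of the aligner, counter, annotation release and strand setting nothing is stated in the labels. Coordinates of genes equalled GENCODE M21 for 98.3% of 54409 genes matched by identifier and for all 10 members. Reads were recovered from FPKM multiplied by length, which fell on whole reads for 100% of values (tolerance 0.05 reads). The 9867 genes averaging 1 FPKM or more over the libraries entered limma 3.58.1 (R 4.3.3) as log2(FPKM + 1). Its moderated two-sided test used the intensity trend, and p was adjusted by Benjamini and Hochberg's method over these genes. This scale understates the change of low genes. Fold changes are rmMETRNL over vehicle. Besides the members, the text names the 4 tested genes with the smallest p of each related list, the most abundant markers, near copies of members, the 3 most similar genes of 2 members, and further genes of the lists for their known role or as defining markers, chosen after their values were seen. The members and lists were chosen with earlier results of these data known. The fit was checked on simulated data. Alternatives were other pseudocounts, filters and scalings, limma without the trend, voom on the reads, a replicate block and leaving out each library. The precision is set by 3 libraries a group, and no interval for counting error was added. Of the listed symbols 9 were not matched in the table. Lilrb4b and Cd244 are other names of genes analysed as Lilr4b and Cd244a, and the other 7 are not analysed here.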

Additional observations from a re-analysis of the deposited data

How the results depend on the processing

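No member passed limma or voom at an adjusted p of 0.05 under any setting tried. The lowest limma or voom adjusted p of a member was 0.204 (Siglece, protein-coding genes only). That minimum leaves out voom with 1 library left out, for which only counts of genes called were kept. Each member's fold change kept its sign in all 17 or 18 settings that gave one. With 1 library left out, the smaller ones and those of Cd274 and Lilrb4a moved by over 1.5 times from the value with all libraries. Lair1 lay between 0.0016 (without rmMETRNL library 2) and 0.13 (without rmMETRNL library 1). Sirpa lay between 0.022 (without rmMETRNL library 3) and 0.098 (without vehicle library 1). Cd200r1 was between 0.019 and 0.11 (without vehicle library 1 and 2), and Pirb between -0.13 and -0.018 (without rmMETRNL library 3 and 2). Cd300a was between 0.050 and 0.11 (without vehicle library 3 and 2), and Lilrb4a between -0.11 and -0.24 (without vehicle library 3 and 2). Cd274 was between 0.10 and 0.21 (without rmMETRNL library 3 and 1). Siglece was between 0.25 (without rmMETRNL library 2) and 0.46 (without vehicle library 1). The count of genes called over the whole table, 0 with limma, was 5 with no filter, 1 after rescaling to TPM, 6 with protein-coding genes only and 61 with voom on the recovered reads. Voom with 1 library left out, added once the data had been seen, called 51, 3 and 24 genes without rmMETRNL library 1, 2 and 3, and 34, 39 and 13 without vehicle library 1, 2 and 3. The cause was not tested. Members whose groups did not overlap numbered 5, and 3 at a minimum of 5 FPKM, where 6 members were tested and 26.7% of all genes did not overlap. Leaving out 1 library gave 5 to 7 such members and 29.6% to 33.9% of all genes, against 21.5% with all libraries. The members' median log2 fold change of 0.07 lay between 0.069 and 0.11 with 1 library left out, 0.112 without rmMETRNL library 1 and 0.110 without vehicle library 2. With the replicate number as a block, 0 genes and 0 members were called. Same-numbered libraries did not deviate together (correlations of -0.021, 0.0074 and -0.045 for numbers 1, 2 and 3), and differently numbered pairs had -0.069 to 0.084. With 3 libraries a group, these values cannot show whether same-numbered samples shared an animal, a dish or a batch. Removing each library's trend with gene length, chosen after seeing the data, left 4 members and 21.7% of all genes without overlap and the median at 0.08. Depth limits Siglece and Clec12a most, since 10 reads on a 1 kb gene equal 0.549 to 0.748 FPKM.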
